A study of Solenopsis japonica with 2 samples.

Results

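In the fire ant *Solenopsis japonica*, 8 contigs whose best matches were peptidoglycan-recognition proteins (PGRPs), a Toll ligand, a Toll-like receptor, a transferrin and a lysozyme were followed here through the steps of humoral immunity. They were chosen by annotation, with earlier results of these data known, from the 4487 contigs in the authors' comparison of the temperatures. They are ordered below as recognition, signal and effector. The RNA came from whole bodies of medium-sized adult workers, wild type, of colonies kept at 25 °C. The T9 workers had spent 24 h at 9 °C, and the T25 workers, the control, an equal time at 25 °C. Each temperature was represented by 1 RNA-seq library, so no spread between groups of ants was measured and no p-value is given. The intervals below are exact 95% intervals of counting error only. In bulk RNA of whole ants, more cells of a type and more RNA per cell cannot be told apart.

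Insects sense bacteria through PGRPs, which bind the peptidoglycan of the cell wall. Some PGRPs start the Imd pathway or a chain of proteases outside the cell, while others are amidases that cut peptidoglycan and in *Drosophila* dampen the response. The protease chain cleaves spaetzle, the cleaved form binds the receptor Toll, and signalling through the adaptor MyD88 in fat body and blood cells switches on genes for secreted effectors such as antimicrobial peptides. Toll receptors and spaetzle-like ligands also act outside immunity, in the embryo and in the nervous system.

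All 8 contigs were higher in the T9 library than in the T25 library, by 2.75-fold to 37.8-fold. Of all contigs in the table, 54.7% were higher in T9. That share was 70.0% if the median of 26 contigs found by ribosomal and housekeeping words is set to 0. With the 15 of these matched to ants it was 58.1%. Both lists hold only contigs called different and are poor references. A spaetzle 5-matched contig had the highest ratio of the 8, and the ratio was lowest for a contig matched to PGRP SC2. Together the 8 contigs held 35850 counts in T9 and 6877 in T25, which is 673 CPM (counts scaled to a normalised library of 1e6) in T9 against 140 CPM in T25. A ratio of at least 4 was reached by 6 of the 8 contigs, against 36.9% of the table. These 6 are also the members that the paper lists as up-regulated. Among them, c78499_g1_i2 was also measured by RT-qPCR in the paper, which reported the same direction of change. The members were chosen with such results known, so the 2 shares are not an independent comparison. Median log2 ratios were 2.43 for the 8, 1.45 for all 4487 contigs and 2.15 for those higher in T9. The table holds only contigs that the authors called different in this wider list, with a ratio of at least 2.35 in one direction. A member without a difference could therefore not appear in it. The paper itself reported a much smaller set as differentially expressed. That set does not hold c112619_g1_i1, c107247_g1_i1 or the cascade proteases named below. Contigs that were not called are not analysed here.

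**Figure D1:**
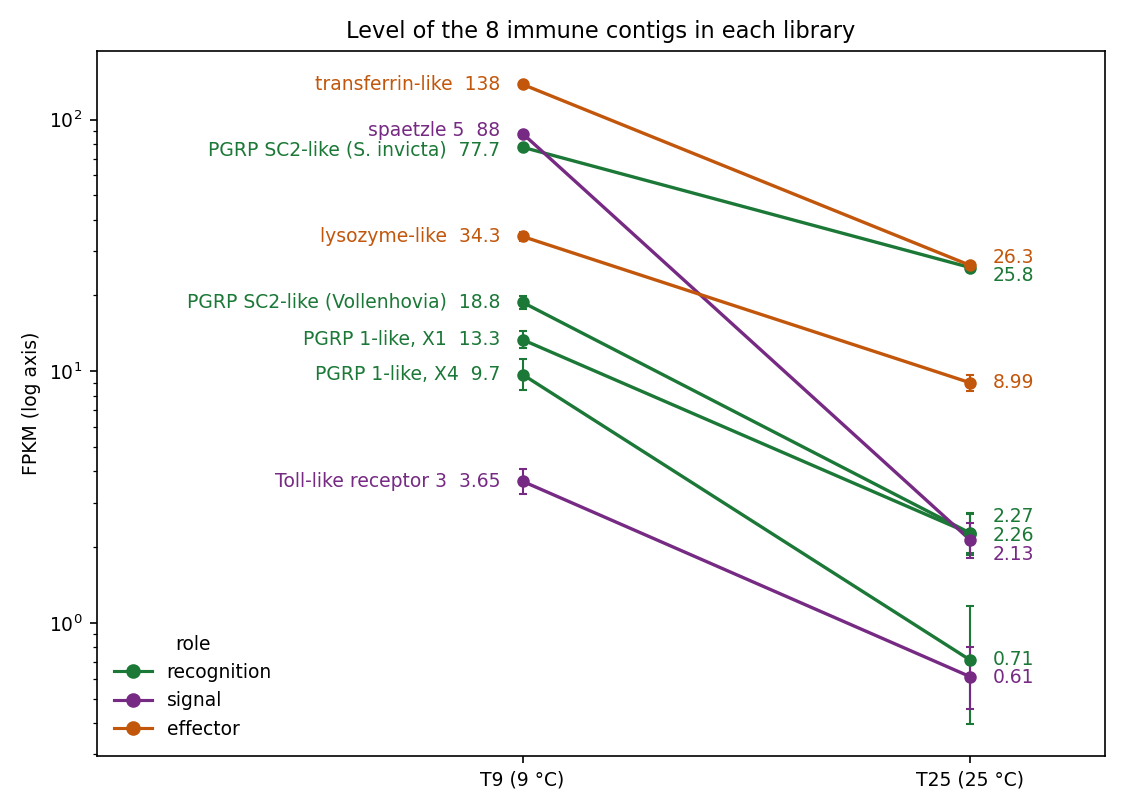
Level of the 8 contigs in FPKM (log axis) in the T9 library (left) and the T25 library (right), coloured by role. Points are the single libraries and bars are exact 95% intervals of counting error. All 8 contigs are higher in T9, and the spaetzle 5 line, with 88.0 FPKM in T9 against 2.13 FPKM in T25, crosses 4 others.

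Recognition was represented by 4 contigs matched to PGRPs. The most abundant was c112619_g1_i1, matched to PGRP SC2-like of the fire ant *S. invicta* (LOC105196159) and to the secreted amidase PGRP-SC2 of *Drosophila*. It had 6767 counts in T9 and 2279 in T25, or 77.7 FPKM (fragments scaled by contig length and library depth) in T9 against 25.8 FPKM in T25. The ratio of scaled counts was 2.75 (2.62 to 2.88). This contig was already abundant at 25 °C, where its FPKM lay within the counting interval of the most abundant contig of the 8. Its gene ontology (GO) terms, taken over from the fly gene, include peptidoglycan catabolism and negative regulation of the innate immune response.

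A further contig, c108287_g1_i1, was matched to PGRP SC2-like of another ant, *Vollenhovia emeryi* (LOC105564513), at the nucleotide level only. It had 1012 counts in T9 and 124 in T25, equal to 18.8 FPKM in T9 against 2.27 FPKM in T25, and the ratio was 7.55 (6.26 to 9.18). The ratio of this contig was 2.75 times (2.26 to 3.36) that of c112619_g1_i1, a difference beyond counting error. Both carry the name SC2-like, but no protein match or protein domain was listed for c108287_g1_i1, so its place in the gene is not known from the table.

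The remaining 2 PGRP contigs matched the same *S. invicta* gene model, PGRP 1-like (LOC105196158). For c78499_g1_i2, matched to transcript variant X1, there were 635 counts in T9 and 109 in T25, which are 13.3 FPKM in T9 against 2.26 FPKM in T25, with a ratio of 5.39 (4.39 to 6.67). Its closest fly protein was PGRP-LB, an amidase known in *Drosophila* to limit Imd signalling by degrading peptidoglycan, and its GO terms include negative regulation of PGRP signalling. For c77048_g1_i1, matched to transcript variant X4, there were 203 counts in T9 and 15 in T25, which are 9.70 FPKM in T9 against 0.71 FPKM in T25, with a ratio of 12.5 (7.42 to 22.8). This short contig had no protein match. The count per FPKM in T9, which rises with contig length, was 2.27 times as large for c78499_g1_i2.

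Both contigs of the PGRP 1-like gene model were thus higher in T9, but not by the same ratio. The ratio of c77048_g1_i1 was 2.32 times (1.31 to 4.39) that of c78499_g1_i2, on the basis of 15 counts in T25. Summed, the gene model had 838 counts in T9 and 124 in T25, a ratio of 6.25 (5.17 to 7.61). The domain match of c78499_g1_i2 and c112619_g1_i1 was to the same ant protein, with an Amidase_2 domain. No other contig of the table had this domain. Since the PGRPs are related in sequence, the division of reads among them rests on the authors' assembly and counting and is uncertain.

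Over the 4 PGRP contigs there were 8617 counts in T9 and 2527 in T25, a summed ratio of 3.16 (3.02 to 3.30) that mostly reflects c112619_g1_i1. The 3 scarcer contigs had ratios of 5.39 or more. Of the 6 pairs among the 4, the intervals of 5 excluded equal ratios. For the remaining pair, c77048_g1_i1 and c108287_g1_i1, the ratio of ratios was 1.66 (0.94 to 3.12).

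The signal step was represented by a contig named as a ligand and a contig named as a receptor. Contig c78777_g1_i3 matched an uncharacterized *S. invicta* protein (LOC105207756), and its name, spaetzle 5, came from the *Drosophila* protein and from a Spaetzle domain. It had 6493 counts in T9 and 159 in T25, or 88.0 FPKM in T9 against 2.13 FPKM in T25. The ratio was 37.8 (32.3 to 44.5), or 5.23 on the log2 scale. This was 3.02 times (1.62 to 5.25) the ratio of the next contig of the 8, c77048_g1_i1. Among the 2455 contigs higher in T9 it ranked 44 by ratio.

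The ligand changed its place among the 8 more than any other member. By FPKM it was number 2 of the 8 in T9, with 22.9% of their summed FPKM, and number 6 in T25, with 3.08%. Transferrin-like, the highest of the 8 in both libraries, made up 36.0% in T9 and 38.1% in T25, and PGRP SC2-like (c112619_g1_i1) made up 20.3% in T9 and 37.4% in T25. In flies spaetzle 5 is known as a neurotrophin that binds Toll receptors of neurons, and the GO terms of the contig name motor neuron axon guidance and formation of the central nervous system beside Toll binding and innate immune response. Whether the ant contig acts in immunity, in nerves or in both is not recorded in the table.

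A further contig with a Spaetzle domain, c89093_g2_i3, named here after its values were seen, was lower in T9. It matched the fly ligand Neurotrophin 1 and had 36 counts in T9 and 115 in T25, a ratio of 0.29 (0.193 to 0.424). No other contigs of the table had this domain, and these 2 stood on opposite sides. Both were given the GO terms Toll binding and Toll signalling pathway.

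Contig c79982_g1_i2, matched to Toll-like receptor 3 of *S. invicta* (LOC105202230), was the scarcest of the 8 in both libraries. It had 297 counts in T9 and 50 in T25, or 3.65 FPKM in T9 against 0.61 FPKM in T25, and a ratio of 5.50 (4.06 to 7.57). Its protein match was a hypothetical *S. invicta* protein, and its domain was a leucine-rich repeat, the kind of repeat that forms the outer part of Toll receptors. This domain (LRR_8) was in 8 contigs of the table, 6 higher and 2 lower in T9, beside 54.7% of the table higher. The name is that of a vertebrate receptor for double-stranded RNA, while insect Tolls are best known as receptors for spaetzle-type ligands. At 9 °C the ligand contig was thus at 88.0 FPKM beside 3.65 FPKM of the receptor contig, and at 25 °C at 2.13 FPKM beside 0.61 FPKM.

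Effectors were represented by transferrin-like and lysozyme-like. Transferrins bind iron in the hemolymph, carry it between tissues and withhold it from microbes. The transferrin-like contig c68675_g1_i1 (LOC105202693) had 17799 counts in T9 and 3439 in T25, or 138 FPKM in T9 against 26.3 FPKM in T25. Its ratio was 4.79 (4.62 to 4.97). The protein match in UniProt was the transferrin of the cockroach *Blaberus discoidalis*, and the GO entry was that of fly Transferrin 3.

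Lysozymes cut the sugar chain of peptidoglycan and serve in insects in both defence and digestion of bacteria. The lysozyme-like contig c107247_g1_i1 (LOC105199375), with a c-type lysozyme domain and the mosquito Lysozyme c-1 as its UniProt match, had 2644 counts in T9 and 702 in T25. These were 34.3 FPKM in T9 against 8.99 FPKM in T25, with a ratio of 3.49 (3.21 to 3.79). The ratio of transferrin-like was 1.37 times (1.25 to 1.51) that of lysozyme-like, and the ratio of lysozyme-like was 1.27 times (1.15 to 1.40) that of PGRP SC2-like (c112619_g1_i1). Both differences lay beyond counting error.

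In T9 the order of levels ran from transferrin-like through spaetzle 5, PGRP SC2-like (c112619_g1_i1), lysozyme-like, c108287_g1_i1, c78499_g1_i2 and c77048_g1_i1 to Toll-like receptor 3, and no 2 neighbours had overlapping counting intervals of FPKM. In T25 the order was less resolved. Transferrin-like (25.4 to 27.2 FPKM) overlapped PGRP SC2-like (24.8 to 26.9 FPKM), and c108287_g1_i1, c78499_g1_i2 and spaetzle 5 all overlapped between 1.89 and 2.49 FPKM. The contigs c77048_g1_i1 (0.397 to 1.17 FPKM) and Toll-like receptor 3 (0.453 to 0.804 FPKM) overlapped as well. In the order of ratios, the neighbours from c77048_g1_i1 through c108287_g1_i1, Toll-like receptor 3 and c78499_g1_i2 to transferrin-like did not differ beyond counting error, pair by pair. Spaetzle 5 stood above them, and lysozyme-like and PGRP SC2-like (c112619_g1_i1) below.

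**Figure D2:**
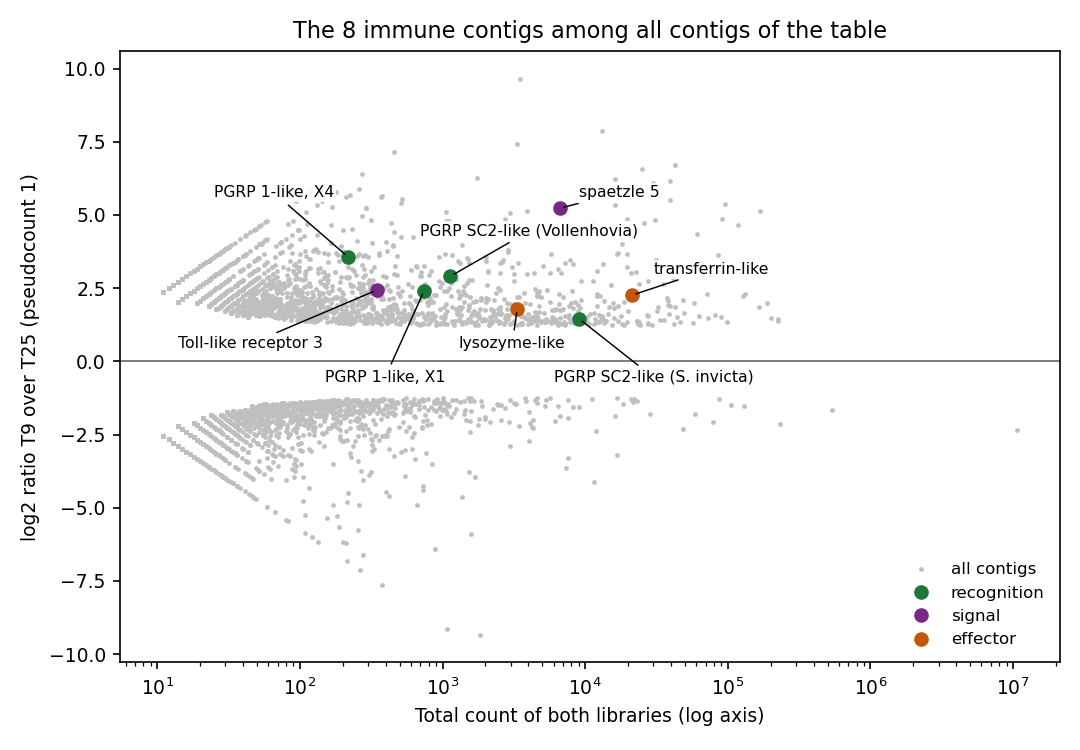
Log2 ratio of T9 over T25 (pseudocount 1) against the total count of both libraries (log axis) for all 4487 contigs, with the 8 contigs coloured by role. The empty band around 0 shows that contigs with a ratio under 2.35 are not in the table. Spaetzle 5 lies at 5.23 with 6652 counts, and the other 7 lie between 1.46 and 3.56.

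All 8 contigs were well counted by the measure of the table, with totals of 218 to 21238 counts. Among the 1057 contigs with at least 200 counts in total, a limit chosen after the data were seen, 68.6% were higher in T9 and 29.5% were at least 4-fold higher. Transferrin-like ranked 91 of the 4487 contigs by FPKM in T9 and 151 in T25. Spaetzle 5 ranked 119 in T9 and 1382 in T25, and Toll-like receptor 3 ranked 1051 in T9 and 2980 in T25. The median FPKM of the table was 1.25 in T9 and 1.18 in T25.

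The contigs nearest to each member in ratio, among described contigs with a total within 2-fold of it, bore varied names. The contig nearest to spaetzle 5 was c78799_g1_i1, a painless-like cation channel of the family of temperature and pain receptors, with 3803 counts in T9 and 98 in T25 and a ratio of 35.9 (29.4 to 44.3). Nearest to c77048_g1_i1 was ornithine decarboxylase 2-like (c77768_g1_i1), an enzyme of polyamine synthesis, with 260 counts in T9 and 19 in T25 (ratio 12.7). Caspase-1-like (c54236_g1_i1), a protease of cell death, was nearest to c108287_g1_i1, with 616 counts in T9 and 75 in T25 (ratio 7.60). A contig matched at the nucleotide level only to fungus-induced protein 1-like (c75530_g1_i2) was nearest to lysozyme-like, with 1438 counts in T9 and 381 in T25 (ratio 3.49). The others were a sodium-dependent multivitamin transporter for c78499_g1_i2, limbic system-associated membrane protein for Toll-like receptor 3, a peroxisomal hydratase-dehydrogenase-epimerase for transferrin-like and microsomal triglyceride transfer protein for c112619_g1_i1. With 2 libraries such nearness describes 1 ratio only.

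A wider list of immune names, sought in the protein and nucleotide descriptions of all contigs, held 27 contigs including the 8. Of these 27, 21 were higher in T9 and 6 were lower, and their median log2 ratio was 1.84. Outside the 8 contigs, 13 were higher and 6 lower, or 68.4% higher against 54.7% of the table, with a median log2 ratio of 1.52 against 1.45. At least 4-fold higher were 7 of the 19, about the 36.9% of the table, and at least 4-fold lower were 4 of the 19, against 30.8% of the table. Beside the 54.7% of the table, signal and effector contigs were higher in T9 in 4 of 4 cases each. Extracellular protease and inhibitor contigs were higher in 7 of 9, and recognition contigs in 6 of 10. Apart from the protease and inhibitor tally, these count members of the 8, which were chosen with such results known. Outside the 8, signal and effector contigs were higher in 2 of 2 cases each, and recognition contigs in 2 of 6. The signal count of 4 includes spaetzle 5, which is named by UniProt and domain only. With the other contig of that domain (c89093_g2_i3) it is 4 of 5. The recognition list keeps 5 contigs matched to Dscam2, and without them 5 of 5 recognition contigs and 20 of 22 contigs of the immune list were higher. Leaving them out was chosen after the data were seen and takes away 4 of the 6 lower contigs. Of the 5 recognition contigs left, 4 are among the 8 members.

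**Figure D3:**
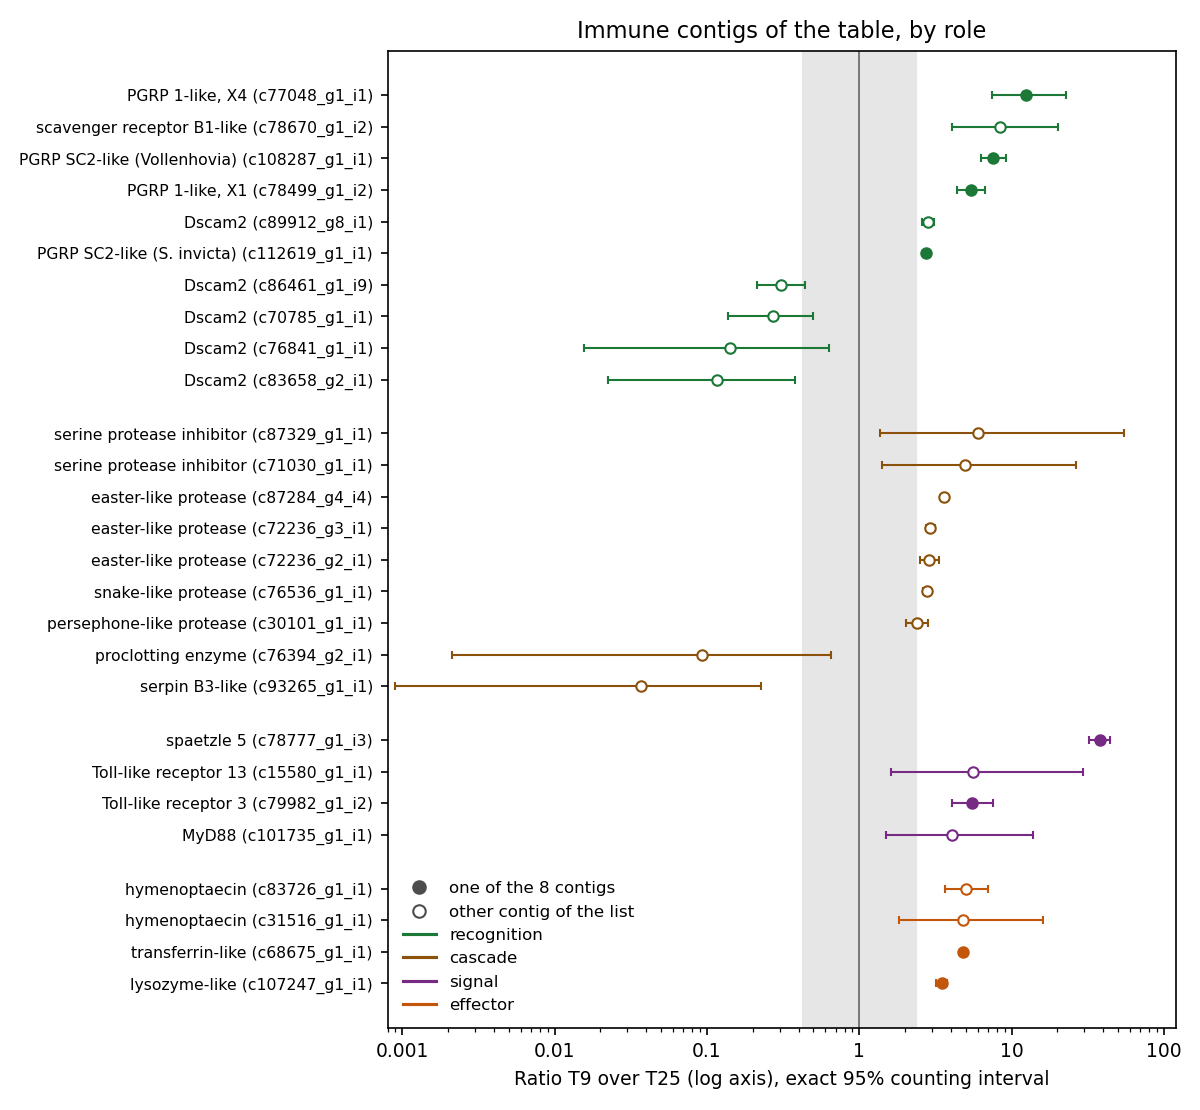
Ratio of T9 over T25 (log axis) with exact 95% counting intervals for the 27 contigs of the immune list, grouped by role from recognition at the top to effector at the bottom. Filled points are the 8 contigs and open points the other 19, and the grey band spans the ratios under 2.35-fold that the table leaves out. Of the other contigs, 4 matched to Dscam2, a serpin and a proclotting enzyme lie left of 1.

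Among contigs named after proteases of the cascade that leads to spaetzle, the best counted contigs were all higher in T9. Of all contigs in the table with at least 200 counts, 68.6% were higher in T9. In flies easter and snake are the proteases that process spaetzle in the embryo, and persephone starts the Toll pathway when microbial proteases are present. The easter-like contig c87284_g4_i4 had 11619 counts in T9 and 2982 in T25, a ratio of 3.61 (3.46 to 3.75). Its fly match was Melanization protease 1, which acts in the darkening reaction around wounds and parasites. The snake-like contig c76536_g1_i1 had 4982 counts in T9 and 1658 in T25, a ratio of 2.78 (2.63 to 2.94). The GO entry of the easter-like contig c72236_g3_i1 was that of fly grass, a protease upstream of Toll. Its UniProt match was again Melanization protease 1. It had 3510 counts in T9 and 1112 in T25, a ratio of 2.92 (2.73 to 3.13).

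Another easter-like contig, c72236_g2_i1, matched the same *S. invicta* gene as c72236_g3_i1 (LOC105204787) and had 792 counts in T9 and 255 in T25 (ratio 2.87), and the persephone-like contig c30101_g1_i1 had 500 counts in T9 and 193 in T25 (ratio 2.40), with a bumblebee venom protease as UniProt match. These 5 protease contigs had ratios between 2.40 and 3.61, and the smallest ratio that the table holds is 2.35. Their log2 ratios, 1.26 to 1.85, lay under the median of 2.15 for all contigs higher in T9. The 4 other cascade contigs had 11 to 26 counts in all. They were 2 serine protease inhibitors, higher in T9, and serpin B3-like (1 count in T9, 25 in T25) and proclotting enzyme (1 count in T9, 10 in T25), lower in T9.

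The signal contigs outside the 8 were few and thinly counted. MyD88 (c101735_g1_i1), the adaptor that binds Toll inside the cell, had 22 counts in T9 and 5 in T25, a ratio of 4.07 (1.50 to 13.8). Toll-like receptor 13 (c15580_g1_i1), whose protein match was a leucine-rich repeat protein, had 18 counts in T9 and 3 in T25, a ratio of 5.55 (1.62 to 29.4). Of the remaining words for the inner part of both pathways, pelle, cactus, dorsal, relish, immune deficiency, FADD and Dredd were in the descriptions of 0 of the 4487 contigs. TNF receptor-associated factor 5 (c73090_g1_i1), named here after its values were seen and outside the list because its name is spelled out, had 220 counts in T9 and 35 in T25, a ratio of 5.82 (4.06 to 8.57).

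The effectors outside the 8 were 2 contigs matched to hymenoptaecin, an antimicrobial peptide of bees, wasps and ants. Both matched the same *S. invicta* gene (LOC105196795). Contig c83726_g1_i1 had 255 counts in T9 and 47 in T25, a ratio of 5.02 (3.67 to 7.01), and c31516_g1_i1 had 26 counts in T9 and 5 in T25, a ratio of 4.81 (1.82 to 16.0). The ratios of all 4 effector contigs lay between 3.49 and 5.02. Defensin, abaecin, apidaecin, ferritin and phenoloxidase were in the descriptions of 0 contigs. A word at 0 contigs may stand for a transcript that was not called different, not assembled or not given that name.

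The recognition list outside the PGRPs held 2 contigs higher and 4 lower in T9, and all 4 of the lower ones were Dscam2 matches. The best counted contig, c89912_g8_i1, matched to Dscam2, had 2049 counts in T9 and 673 in T25, a ratio of 2.82 (2.58 to 3.08). The 4 other contigs matched to Dscam2, a cell adhesion protein known in flies for the wiring of neurons, were lower in T9, with 15 to 172 counts in all and ratios of 0.116 to 0.308. Scavenger receptor B1-like (c78670_g1_i2) had 73 counts in T9 and 8 in T25, a ratio of 8.44 (4.07 to 20.3). Outside the list, c90136_g7_i3, named after its values were seen, was a C-type lectin, a sugar-binding protein, by UniProt match and protein domain, with 179 counts in T9 and 443 in T25, a ratio of 0.374 (0.313 to 0.446).

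The GO term peptidoglycan binding was given to 4 contigs of the table, of which 3 were higher in T9. Of the 1022 contigs with any GO term, 603 were higher in T9 and 419 were lower. Of the 4, the PGRPs c112619_g1_i1 and c78499_g1_i2 are members, chosen with such results known. The others were 2 contigs matched to NPC2 homologs, sterol carriers whose fly counterpart Npc2a also binds bacterial wall components. They lay on opposite sides. Contig c64858_g1_i1 had 975 counts in T9 and 333 in T25, a ratio of 2.71 (2.39 to 3.08), and c85185_g1_i2 had 56 counts in T9 and 455 in T25, a ratio of 0.114 (0.0847 to 0.151). These contigs were named after their values were seen.

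Contigs of tissues and microbes that could bear on immune transcripts were in the table too, and their part in the results was not tested. Of all contigs in the table, 54.7% were higher in T9. Of 6 fat body contigs, the tissue that secretes most effectors, 4 were higher (66.7%) and 2 lower in T9. They held 218993 counts in T9 and 73210 in T25 (summed ratio 2.77). Apolipophorins (c84287_g2_i1, ratio 2.76) and vitellogenin (c89203_g1_i4, ratio 2.85) carried most of this sum, while arylphorin and hexamerin-like were lower. Of 29 gut contigs, mostly chymotrypsins and trypsins, 22 were higher (75.9%) and 7 lower. They held 338123 counts in T9 and 11928 in T25 (summed ratio 26.2). Several PGRPs and lysozymes are made in the gut of other insects. The only hemocyte name was peroxidasin-like (c13443_g1_i1), with 1255 counts in T9 and 465 in T25 (ratio 2.50). The lowest count in the table is 1 in either library, so no marker is listed at 0.

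Virus-matched contigs numbered 11, of which 6 were higher and 5 lower in T9, with 4222 counts in T9 and 2505 in T25. The share higher, 54.5%, was about the 54.7% of the table. At the extremes, c90698_g1_i1, matched to a crawfish virus, had 3307 counts in T9 and 17 in T25, and c13550_g1_i1, matched to an iflavirus polyprotein, had 1 count in T9 and 1071 in T25. Different viral transcripts thus prevailed in the 2 libraries. Contigs whose best protein match was bacterial numbered 11, with 268 counts in T9 and 269 in T25, of which 6 were higher in T9 (again 54.5%). Among the 11, 4 matched *Wolbachia*, a bacterium that lives inside insect cells, of which 3 were higher and 1 lower in T9. Their sum was 141 counts in T9 and 40 in T25 (ratio 3.26, 2.28 to 4.76). The lower one, c103885_g1_i1, had 2 counts in T9 and 13 in T25. At the nucleotide level c82772_g1_i1 and c98828_g1_i1 matched a *Wolbachia* phage. The bacterial contigs had at most 137 counts in all, and 2 of them (c15870_g1_i1 and c78852_g1_i1) had a human or mouse sequence as nucleotide match.

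**Figure D4:**
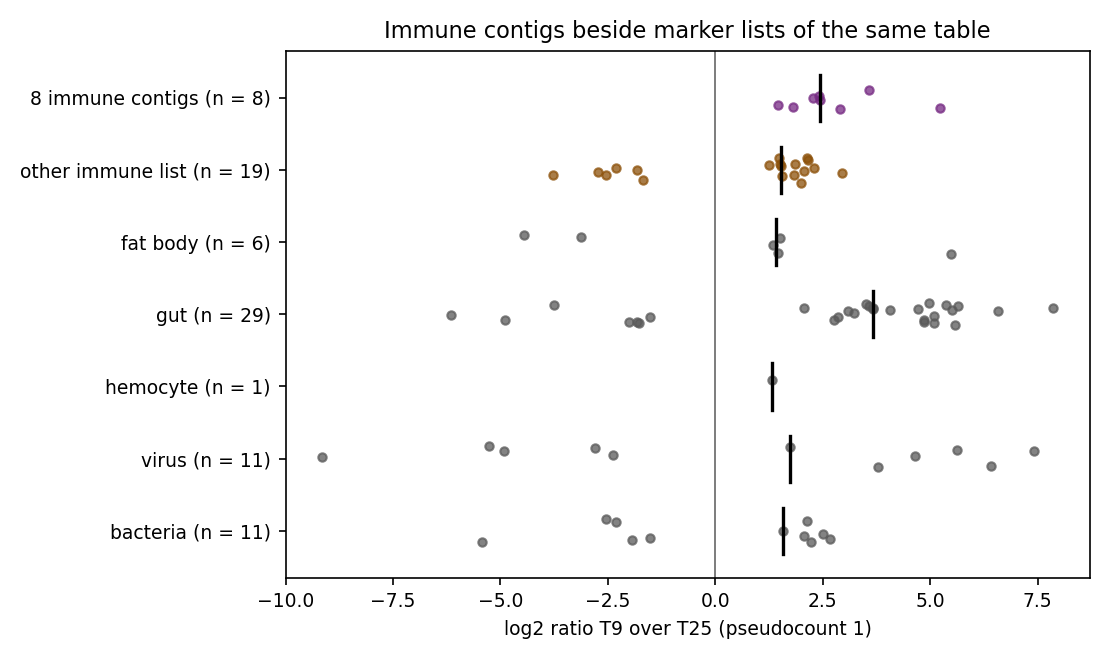
Log2 ratio of T9 over T25 (pseudocount 1) of single contigs for the 8 immune contigs, the other 19 contigs of the immune list, and the fat body, gut, hemocyte, virus and bacteria lists of the table. Each point is a contig and each vertical bar the median of its list. The 8 contigs have a median of 2.43, gut contigs 3.66 and fat body contigs 1.41, and virus and bacteria contigs lie on both sides.

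The counts of the table summed to 7176142 in T9 and 11259918 in T25. A single mitochondrial contig made up 26.2% of this sum in T9 and 78.0% in T25. Ratios were therefore scaled by the normalised library sizes behind the authors' log2 values, 53237356 in T9 and 49264352 in T25, and not by these sums. The authors' FPKM columns rest on another depth and give log2 ratios that are higher by 0.13 in the median before any pseudocount, which is why 88.0 over 2.13 FPKM exceeds the ratio given for spaetzle 5. The number of members at or above 4-fold was 6 with either scaling, and 8 with the housekeeping median set to 0. That median is a poor reference, since it rests on contigs called different, some of them matched to mammals, moths or a fungus.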

How the data were processed

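RNA of whole workers was sequenced in 1 library per temperature, made from pooled ants. Per the submitters' notes and methods, the authors used FastQC 0.11.7, Trimmomatic 0.38, a Trinity assembly, Bowtie 1.1.2 and RSEM. The deposited expected counts are whole numbers per contig, not normalized. The deposited FPKM values are per contig length and depth. The deposited log2 values are log2(CPM + 1), from which the normalised library sizes were recovered. The authors' signed fold change (a score) and their raw and adjusted p-values, from 1 library against 1, were not used.

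Members, words and lists were chosen with earlier results of these data known. Ratios are scaled counts of T9 over T25 with exact Clopper-Pearson 95% intervals (Python 3.11.15, scipy 1.17.1), and log2 ratios have a pseudocount of 1. Words were sought in the protein and nucleotide descriptions, and false word hits were left out by name. Named contigs are the 8 members, up to 5 contigs per role with the largest total, and the contig nearest in ratio to each member. Others are said to be named after their values were seen, or make up a count they stand beside. Interval coverage was tested on simulated data. Alternatives covered scaling, pseudocount, thresholds, counts, organism and database. The sequences of the contigs and the reads were not analysed here.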

Additional observations from a re-analysis of the deposited data

How the results depend on the processing

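Every member stayed higher in T9 in each scaling and pseudocount tried. Each alternative scaling raised the ratios, so none of them could have turned a member lower. Actin-5C (c71363_g4_i1), the best counted contig found by the housekeeping words, had a ratio of 2.48, beside the lowest member ratio of 2.75. Scaling to it was not tried. Of the 26 contigs found by those words, 10 were higher and 16 lower in T9. With the clean read pairs, or the authors' FPKM columns, 3 log2 ratios left their counting intervals, at 1.59 and 1.59 for c112619_g1_i1 (1.46 as reported), 2.39 and 2.39 for c68675_g1_i1 (2.26) and 1.93 and 1.93 for c107247_g1_i1 (1.80). Setting the median of the 26 contigs found by ribosomal and housekeeping words to 0 added 1.93 to every log2 ratio. It gave 4.84 for c108287_g1_i1, 3.39 for c112619_g1_i1, 5.49 for c77048_g1_i1 and 4.35 for c78499_g1_i2. It also gave 7.16 for c78777_g1_i3, 4.36 for c79982_g1_i2, 4.19 for c68675_g1_i1 and 3.73 for c107247_g1_i1. It moved the share of the table higher in T9 to 70.0%, against 54.7%, and the members at 4-fold or more to 8. With the 15 of these contigs matched to ants, an alternative chosen after the data were seen, the ratios were 4.37, 2.92, 5.03, 3.88, 6.69, 3.90, 3.72 and 3.26 in the same order, with 8 members at 4-fold or more and 58.1% of the table higher. Both lists hold only contigs called different, so they are poor references. The ribosomal protein and elongation factor 1-alpha contigs matched mammals, moths or a fungus and not ants. Words such as ubiquitin and tubulin also drew in ubiquitin ligases and tubulin-modifying enzymes. Of the 8 members, 7 reached a ratio of 3 and 2 reached 8, against 6 at 4. Of all contigs, 47.3% reached 3 and 15.2% reached 8. With a total of at least 100 counts, 1 contig of the immune list was lower in T9, against 6 of all totals, and 15 were higher. The 15 include the 8 members. In the table too the share higher in T9 rose with counts, from 54.7% to 68.6% at 200 counts or more. The table's share at 100 counts is not given here. Words in UniProt and Pfam fields, an alternative added after the data were seen, gave 23 higher and 8 lower. Leaving out Dscam2 matches, likewise added, gave 20 higher and 2 lower. No paired analysis was possible because each temperature has 1 library. The depth limits ratios with few counts: the T25 value of c77048_g1_i1 rests on 15 counts. Without replicates no statement covers the spread between groups of ants.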
